A study of Mus musculus with 6 samples.

Results

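The Dlx, Msx and Lhx2 genes encode homeobox transcription factors that pattern limbs, teeth, hair and other appendages. All genes whose symbol is Dlx1 to Dlx6, Msx1, Msx2 or Lhx2 were taken by symbol, which gave 9 genes among the 24063 gene symbols of the deposited tables. No measured value entered that rule, but the set was chosen with earlier results of these data known. All 9 were found, and all 9 passed the filter on low counts that left 16336 genes to be tested. They were followed by RNA-seq in 3 SA tumors of the penis and in 3 samples of normal penile epithelium of WT mice, all at 5 months of age. SA mice carry the genotype PB-Cre+ Smad4L/L ApcL/L, in which Cre recombinase, driven by an androgen-responsive promoter, deletes both alleles of Smad4 and of Apc in the cells that express it, and their tumors arose with no carcinogen. WT mice were C57BL/6 animals of the same age and are not described as littermates, so Cre, the 2 deletions, genetic background and tumor state cannot be told apart as sources of a difference. Each library is a bulk piece of tissue, in which fewer cells of a type and less RNA per cell cannot be told apart.

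Dlx genes are the mammalian relatives of Distal-less, a gene that insects need to grow the ends of their legs. They lie in the genome as linked pairs that are transcribed towards each other, and the 2 genes of a pair are known to share enhancers. Dlx5 and Dlx6 act in bone, jaw and the genital tubercle, the bud that becomes the penis. Dlx3 acts in the differentiating epidermis and the hair shaft, and Dlx1 and Dlx2 act in the jaw, the teeth and forebrain interneurons. Msx1 and Msx2 are classic targets of BMP signals in tooth, hair and limb buds. Lhx2 belongs to the LIM homeobox family, binds the cofactor Ldb1 and is known from hair follicle stem cells, the limb bud and the forebrain. Smad4 is the shared partner of the BMP and TGF-beta Smads, and Apc belongs to the complex that degrades beta-catenin.

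In the GRCm38 assembly, which is mm10, Dlx1 lies on chromosome 2 at 71528113 to 71533981 on the plus strand and Dlx2 at 71543408 to 71546754 on the minus strand, with 9426 bases between them. Dlx6 lies on chromosome 6 at 6863334 to 6867970 on the plus strand, and Dlx5 follows after 9830 bases at 6877801 to 6882068 on the minus strand. Dlx3 on the plus strand of chromosome 11, at 95120117 to 95125296, is separated by 15150 bases from Dlx4 on the minus strand, at 95140447 to 95146294. Msx1 lies on chromosome 5 at 37820491 to 37824585 and Msx2 on chromosome 13 at 53466881 to 53472780, both on the minus strand. Lhx2 lies on the plus strand of chromosome 2 at 38339271 to 38369737, on the same chromosome as Dlx1 but far from it. The homeobox is the stretch of 180 bases that encodes the DNA-binding homeodomain of 60 residues. Homeoboxes of 5 of the genes are shown because related genes could share reads and because the genes that moved most, Dlx5, Dlx6 and Lhx2, can then be read beside relatives that moved less. They were taken from the reference transcripts, and the capitals mark the bases in the part of the DNA-recognition helix that was used to place each box. Those of the Dlx genes are split between exons 2 and 3 and that of Lhx2 between exons 4 and 5.
Dlx5 (chr6:6878441-6879657, minus strand): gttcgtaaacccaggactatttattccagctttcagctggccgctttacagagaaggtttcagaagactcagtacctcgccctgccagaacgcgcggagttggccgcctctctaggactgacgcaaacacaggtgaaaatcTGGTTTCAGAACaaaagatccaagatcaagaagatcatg
Dlx6 (chr6:6865140-6867088, plus strand): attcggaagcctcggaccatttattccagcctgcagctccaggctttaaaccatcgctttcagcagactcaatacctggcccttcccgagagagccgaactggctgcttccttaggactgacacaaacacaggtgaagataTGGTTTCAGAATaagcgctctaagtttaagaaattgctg
Dlx1 (chr2:71531025-71532311, plus strand): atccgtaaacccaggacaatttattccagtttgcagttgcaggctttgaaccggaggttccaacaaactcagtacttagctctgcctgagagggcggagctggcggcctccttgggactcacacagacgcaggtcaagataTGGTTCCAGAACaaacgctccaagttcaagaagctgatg
Dlx3 (chr11:95121767-95123456, plus strand): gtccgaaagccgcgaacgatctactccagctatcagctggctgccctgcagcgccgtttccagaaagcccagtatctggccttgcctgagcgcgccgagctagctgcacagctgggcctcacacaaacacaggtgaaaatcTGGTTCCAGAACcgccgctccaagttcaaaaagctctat
Lhx2 (chr2:38359966-38368883, plus strand): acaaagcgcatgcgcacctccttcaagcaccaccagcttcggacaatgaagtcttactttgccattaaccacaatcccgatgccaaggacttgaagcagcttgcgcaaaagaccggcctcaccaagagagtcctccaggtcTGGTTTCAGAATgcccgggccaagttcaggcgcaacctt
Over these 180 bases the 6 Dlx genes were 66.1% to 81.7% identical to each other in 15 pairs. Msx1 and Msx2 were 82.2% identical. Dlx and Msx boxes shared 54.4% to 65.0% of their bases, and the box of Lhx2 was more distant, at 38.9% to 45.0% against the Dlx genes and 42.2% to 43.3% against the Msx genes. The longest run of bases that the transcripts of any 2 of the 9 genes had in common was 26 bases, against sequencing reads of 76 bases.

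Levels are given as CPM, the count relative to the library total, after TMM normalization, a scaling that lets libraries of unequal composition be compared. Between 23828283 and 110509147 counts fell on gene rows in a library, and SA replicate 3 was the deepest. A count of 3, taken as the lowest that can be told from 0, was worth 0.0244 to 0.137 CPM, which covers counting error only. Fold changes, on the log2 scale and with their SE, set the SA tumors against the WT penises and come from edgeR's quasi-likelihood test with Benjamini-Hochberg adjustment over all genes tested. A gene was called at an adjusted p-value under 0.01 together with a log2 fold change of 2 or more in either direction, a fold of 4. With 3 samples against 3, an exact two-sided permutation test of a single gene cannot give a p-value below 0.10. The deleted genes came first. Smad4 (NM_008540) was at 36.6, 36.1 and 46.1 CPM in the SA tumors and 61.2, 69.7 and 72.5 CPM in the WT penises, a log2 fold change of -0.77 ± 0.128 (adjusted p = 0.00114). Apc (NM_007462) was at 253, 194 and 197 CPM in the SA tumors and 62.5, 85.3 and 91.1 CPM in the WT penises, a log2 fold change of 1.43 ± 0.168 (adjusted p = 0.000185). The count of a whole transcript does not show which exons were lost, so neither row checks the deletion itself.

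Of the 9 homeobox genes, Lhx2 was called higher in the SA tumors, and Dlx5 and Dlx6 were called lower. Among all genes tested, 9.41% were called higher and 3.59% lower, and 13.0% were called in either direction. At the adjusted p-value alone, at any fold, Dlx1, Dlx2 and Msx1 were also lower, which makes 5 lower and 1 higher, 6 of 9 in all. Among all genes tested 17.5% were lower and 20.1% higher, or 37.6% in either direction. In 7 of the 9 genes the SA and WT samples did not overlap, with 6 lower and 1 higher in the tumors. The same held for 63.4% of all genes tested, 30.7% lower and 32.7% higher. Across all of those genes the median of the log2 fold changes was 0.03. The calls of Lhx2, Dlx5 and Dlx6 were made in each of the 6 fits that left out 1 sample.

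**Figure D1:**
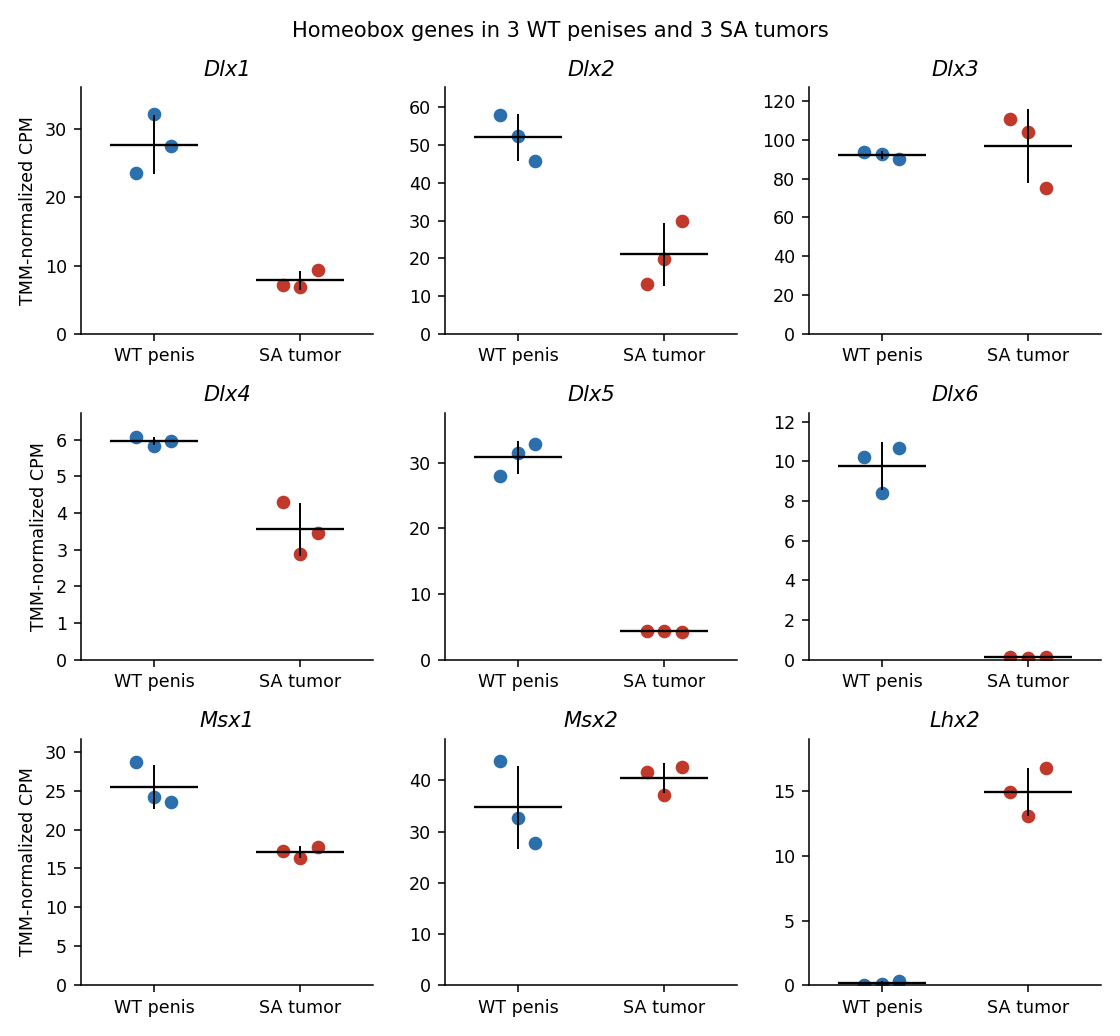
Level of each of the 9 homeobox genes (vertical axes: TMM-normalized CPM, each from 0) in 3 WT penises (blue) and 3 SA tumors (red), with each point a library, the horizontal bar the group mean and the vertical bar ± SD. Dlx6 fell from 8.41 to 10.7 CPM in WT penises to 0.0662 to 0.154 CPM in SA tumors, Lhx2 rose from at most 0.364 CPM to 13.1 to 16.8 CPM, and the groups of Dlx3 and Msx2 overlap.

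The Dlx5 and Dlx6 pair fell furthest. Dlx6 (NM_010057) was counted 225, 252 and 234 times in the WT penises, which gave 10.2, 8.41 and 10.7 CPM. It was counted 3, 2 and 19 times in the SA tumors, which gave 0.111, 0.0662 and 0.154 CPM. SA replicates 1 and 2 lay at or below the floor of 3 counts, and all tumors were far under the lowest WT penis. The log2 fold change was -6.24 ± 0.308 (adjusted p = 2.78e-06), a 75.5-fold lower level, and -6.72 without SA replicate 3, which held most of the counts left in the tumors. Its partner Dlx5 (NM_010056) was at 28.0, 31.5 and 32.9 CPM in the WT penises and 4.31, 4.34 and 4.20 CPM in the SA tumors. The 3 tumors were nearly equal, at 4.28 ± 0.0733 CPM (SD, n = 3), and none came near the WT level of 30.8 ± 2.55 CPM (SD, n = 3). Dlx5 fell by 2.85 ± 0.127 on the log2 scale, a 7.20-fold lower level (adjusted p = 2.11e-06). Unlike Dlx6, it was still counted 116, 131 and 517 times in the tumors, well above the floor of 3 counts. Dlx5 has a second transcript row, NM_198854, which was counted 115, 129 and 498 times in the SA tumors and 606, 914 and 706 times in the WT penises, nearly the same as the row used. Both rows can hold the same reads and are not independent measures. The fold changes of the 2 partners were not tested against each other. Their approximate 95% intervals, -3.10 to -2.60 for Dlx5 and -6.84 to -5.63 for Dlx6, do not overlap.

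Lhx2 went the other way. Lhx2 (NM_010710) was counted 0, 3 and 8 times in the WT penises, or 0, 0.100 and 0.364 CPM, and 401, 397 and 2065 times in the SA tumors, or 14.9, 13.1 and 16.8 CPM. The gene was thus at or near the floor in normal penile epithelium and present in every tumor at a similar level, with a mean of 14.9 ± 1.81 CPM (SD, n = 3). The log2 fold change was 6.62 ± 0.519 (adjusted p = 2.31e-05), a 98.1-fold higher level, and the mean CPM of the tumors was 96.5 times that of the WT penises. Because the WT group holds so few counts, the size of the fold is loose, with a 95% interval of 5.60 to 7.63 on the log2 scale and values of 6.08 to 7.95 in the fits without 1 sample. The second Lhx2 transcript, NM_001290646, was counted 313, 309 and 1649 times in the SA tumors and 0, 1 and 4 times in the WT penises, so both rows rose. Both can hold the same reads, so neither row is independent of the other.

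**Figure D2:**
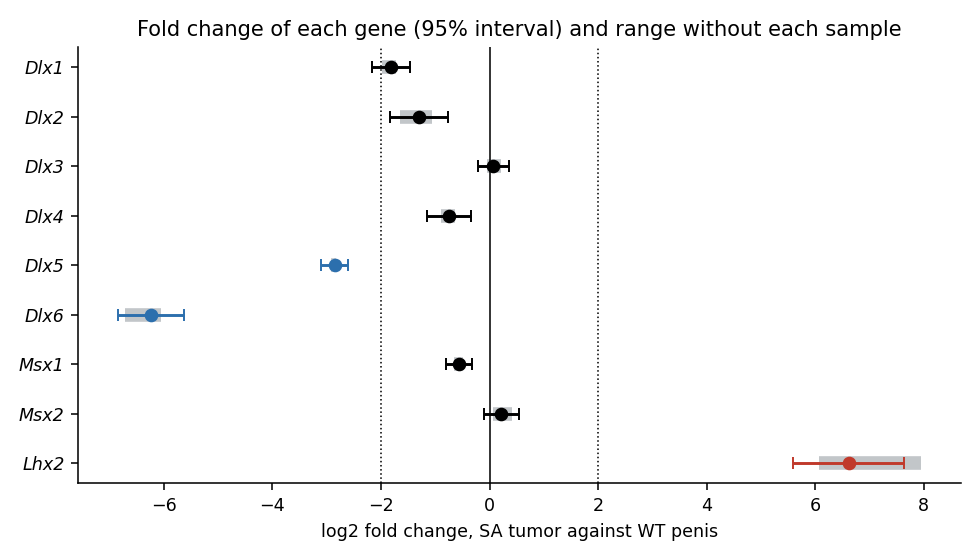
Log2 fold change, SA tumor over WT penis, for each homeobox gene (points, with approximate 95% intervals from the SE; red called higher, blue called lower, black not called), the range over the fits that each leave out 1 sample (grey bars), and the fold threshold (dotted lines at -2 and 2). Dlx5, Dlx6 and Lhx2 lie beyond the threshold in all of these fits, and Dlx3 and Msx2 lie near 0.

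The Dlx1 and Dlx2 pair on chromosome 2 was lower in the tumors by less. Dlx1 (NM_010053) was at 23.6, 32.2 and 27.5 CPM in the WT penises and 7.21, 6.89 and 9.40 CPM in the SA tumors. All tumors lay below all WT penises, and the log2 fold change was -1.82 ± 0.175 (adjusted p = 6.34e-05), just short of the fold threshold. Dlx2 (NM_010054) was at 58.1, 52.3 and 45.8 CPM in the WT penises and 13.3, 19.9 and 29.9 CPM in the SA tumors. The tumors were all below the WT penises but spread widely, with a mean of 21.0 ± 8.39 CPM (SD, n = 3), and SA replicate 3 was the highest. The log2 fold change of Dlx2 was -1.30 ± 0.270 (adjusted p = 0.00478). That call at the adjusted p-value alone was lost without SA replicate 2 (adjusted p = 0.0252), WT replicate 1 (0.0244), WT replicate 2 (0.0182) or WT replicate 3 (0.0126), with log2 fold changes from -1.65 to -1.06 over the 6 fits.

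The Dlx3 and Dlx4 pair on chromosome 11 differed least. Dlx3 (NM_010055), the epidermal member and the most abundant of the 9, was at 93.6, 92.8 and 90.0 CPM in the WT penises and 111, 104 and 75.3 CPM in the SA tumors. The tumors lay on both sides of the WT penises. Its log2 fold change was 0.07 ± 0.143 (adjusted p = 0.723), with a 95% interval of -0.21 to 0.35, and it was -0.05 without SA replicate 1. Dlx4 (NM_007867) was at 6.06, 5.84 and 5.97 CPM in the WT penises and 4.31, 2.88 and 3.46 CPM in the SA tumors. The groups did not overlap, but the log2 fold change of -0.75 ± 0.209 did not pass the threshold (adjusted p = 0.0161). It passed without SA replicate 1, at -0.90 (adjusted p = 0.00752).

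Both Msx genes stayed within a 2-fold range. Msx1 (NM_010835) was at 28.7, 24.2 and 23.5 CPM in the WT penises and 17.3, 16.3 and 17.8 CPM in the SA tumors. The tumors were close together and below every WT penis, with a log2 fold change of -0.57 ± 0.122 (adjusted p = 0.00467). The call at the adjusted p-value alone was lost without SA replicate 1 (adjusted p = 0.0103), SA replicate 2 (0.0174), WT replicate 1 (0.0141) or WT replicate 2 (0.0159). Msx2 (NM_013601) was at 43.7, 32.7 and 27.8 CPM in the WT penises and 41.6, 37.1 and 42.6 CPM in the SA tumors. The tumors fell inside the range of the WT penises, and the log2 fold change was 0.22 ± 0.165 (adjusted p = 0.289, 95% interval -0.10 to 0.54). The other Msx gene, Msx3 (NM_010836), is best known from the dorsal neural tube. It was counted 107, 104 and 123 times in the SA tumors against 0, 2 and 2 times in the WT penises, which in the deepest library, SA replicate 3, was only 0.999 CPM against 3.98 and 3.44 CPM in the others.

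Levels of different genes can be compared only per length, for which the deposited TPM values, which scale counts by transcript length, were used as a description. Without the TMM scaling, TPM differences between the groups are not the same quantity as the fold changes above. In the WT penises the order was Dlx3 (46.0 to 49.9 TPM), Dlx5 (25.4 to 33.7), Dlx2 (26.7 to 30.1), Msx2 (18.5 to 25.8), Msx1 (17.5 to 19.0), Dlx1 (10.9 to 16.2), Dlx6 (11.0 to 14.4), Dlx4 (4.26 to 4.73) and Lhx2 (0 to 0.229). The ranges of Dlx5 and Dlx2, of Dlx5 and Msx2, of Msx2 and Msx1 and of Dlx1 and Dlx6 overlapped, although Msx2 was above Msx1 in each of the 3 libraries. In the SA tumors Dlx3 stayed highest, at 52.8 to 76.0 TPM, followed by Msx2 at 29.4 to 35.9 TPM. Msx1 (14.4 to 16.9 TPM), Dlx2 (9.59 to 22.1) and Lhx2 (9.80 to 13.3) came next, with the range of Dlx2 overlapping the other two. Dlx5 dropped to 5.26 to 5.47 TPM, within the range of Dlx1 at 4.24 to 6.17 TPM, and Dlx4 (2.71 to 4.24 TPM) and Dlx6 (0.106 to 0.263 TPM) were lowest. Lhx2 therefore went from the last place to a level above Dlx5 in every tumor. Dlx3 made up 34.7% to 35.7% of the TPM of the 6 Dlx genes in the WT penises and 58.5% to 75.9% in the SA tumors. Over the same libraries the share of Dlx5 went from 19.7% to 23.5% down to 5.46% to 6.02%.

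**Figure D3:**
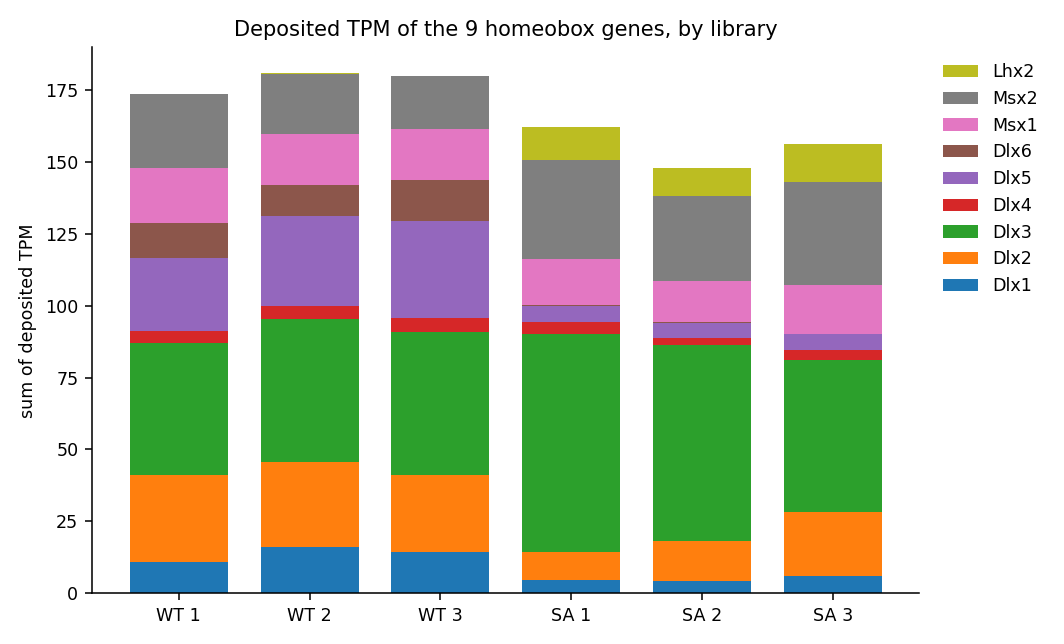
Deposited TPM of the 9 homeobox genes stacked in each library (vertical axis: sum of TPM; 3 WT penises, then 3 SA tumors). The sums were 174 to 181 TPM in the WT penises and 148 to 162 TPM in the SA tumors, with Dlx6 nearly gone from the tumors, Dlx5 reduced and Lhx2 added.

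All 5 noncoding rows that overlap these genes passed the adjusted p-value and were lower in the tumors. Dlx6os1, which spans all of Dlx6 on the other strand and is known as a regulator of its neighbours, was at 12.7, 13.2 and 14.8 CPM in the WT penises and 0.297, 0.166 and 0.365 CPM in the SA tumors. It fell by 5.48 ± 0.273 on the log2 scale (adjusted p = 2.78e-06), next to the -6.24 of Dlx6. Dlx6as2, a short noncoding row inside Dlx6, was at 0.866 to 1.13 CPM in the WT penises and was counted 0, 0 and 5 times in the tumors (log2 fold change -5.17 ± 0.593, adjusted p = 0.000162). Dlx1as was at 23.9, 27.7 and 21.8 CPM in the WT penises and 4.94, 4.57 and 5.68 CPM in the SA tumors. Its log2 fold change of -2.27 ± 0.155 (adjusted p = 1.11e-05) passed both thresholds where that of Dlx1 did not. Msx1os was lower by less, with a log2 fold change of -0.64 ± 0.130 (adjusted p = 0.00339), beside -0.57 for Msx1. A730090H04Rik, a noncoding row that overlaps Dlx4, was at 7.14, 7.04 and 7.38 CPM in the WT penises and 3.01, 3.21 and 3.39 CPM in the SA tumors (log2 fold change -1.16 ± 0.174, adjusted p = 0.000691). These rows are not independent of the genes they overlap. The span of Dlx1as covers 57.0% of that of Dlx1 and its count was 60.4% to 101% of the Dlx1 count, and Msx1os covers 53.4% of Msx1 at 62.0% to 71.1% of its count. The libraries were stranded, but the strand setting of the counting is not given in the sources used here, so reads of a gene and of an overlapping RNA cannot be told apart.

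Other genes near the loci were examined to see how far the changes reached. Within 200 kb of the 9 genes lie 27 other rows, of which 24 were tested. Without the Dlx and Msx noncoding rows, 20 were tested, of which 2 were called higher and 1 lower. The shares among all genes tested were 9.41% called higher and 3.59% called lower. At the Dlx5 and Dlx6 locus the nearest other gene tested, Acn9, 73.9 kb beyond Dlx5, was at 1.96 to 2.60 CPM in the WT penises and 2.16 to 2.42 CPM in the SA tumors, with a log2 fold change of 0.00 ± 0.237 (adjusted p = 0.997). Its 95% interval of -0.46 to 0.47 leaves out the fold changes of Dlx5 and Dlx6. At Lhx2, Nek6, a mitotic kinase gene 114 kb away, was at 3.89, 4.67 and 3.28 CPM in the WT penises and 29.3, 28.2 and 28.7 CPM in the SA tumors. It rose 7.24-fold (log2 fold change 2.86 ± 0.157, adjusted p = 3.86e-06), whereas Dennd1a, 51.9 kb away on the other side, had a log2 fold change of 0.11 ± 0.115 (adjusted p = 0.433). Cytl1, 80.7 kb from Msx1, was at 4.57, 4.57 and 4.97 CPM in the WT penises and at most 0.0662 CPM in the SA tumors, and fell by 6.66 ± 0.444 on the log2 scale (adjusted p = 9.91e-06), far more than Msx1. Gm1631, 173 kb from Dlx2, was counted 18, 15 and 121 times in the SA tumors and 0, 0 and 1 times in the WT penises. Metap1d, 2.92 kb from Dlx1, was lower by much less than Dlx1 (log2 fold change -0.53 ± 0.108, adjusted p = 0.00355). Itga3, 43.3 kb from Dlx3, had a log2 fold change of -0.54 ± 0.116 (adjusted p = 0.00475). For Kat7, 126 kb from Dlx4, the value was -0.24 ± 0.0946 (adjusted p = 0.0647), and for Sptlc1, 89.5 kb from Msx2, it was -0.32 ± 0.0944 (adjusted p = 0.0195).

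**Figure D4:**
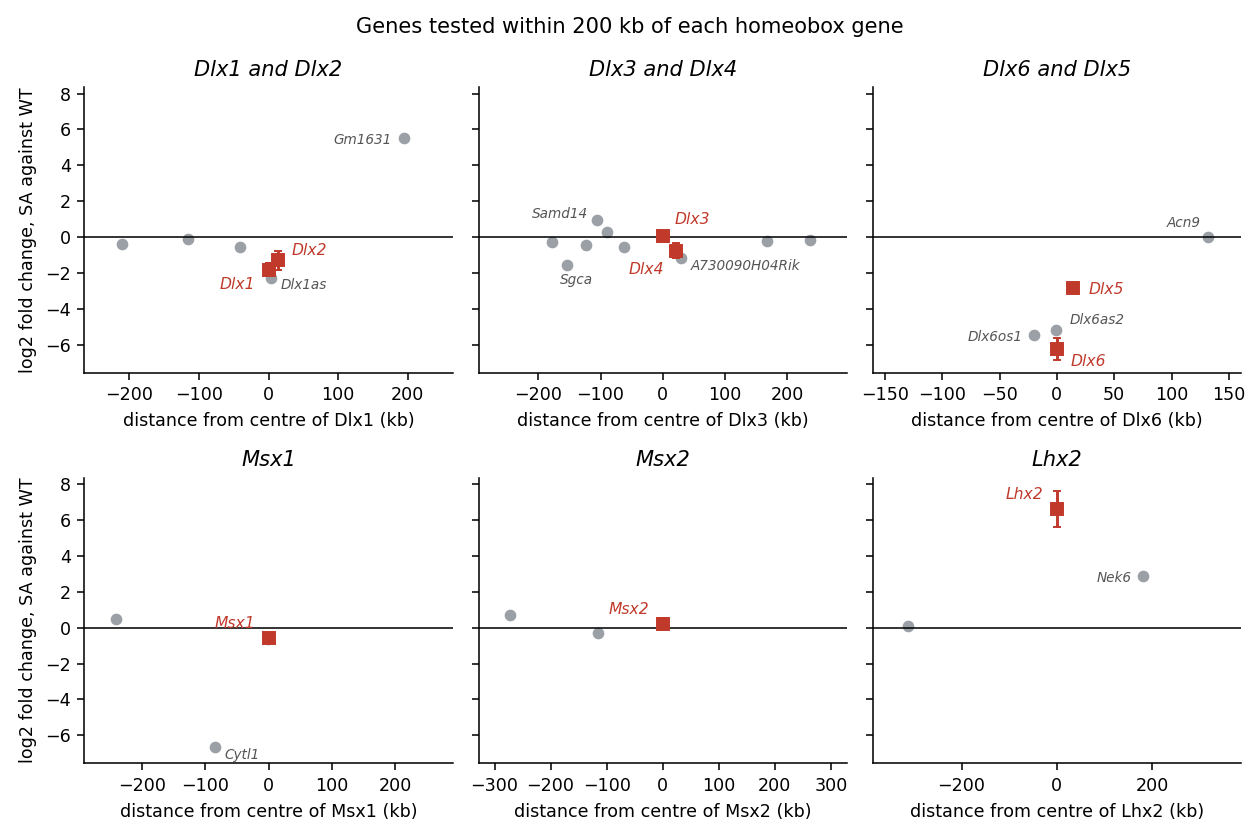
Log2 fold change (vertical axis) of each homeobox gene (red squares, with approximate 95% intervals) and of the genes tested within 200 kb of it (grey circles), by distance in kb from the centre of the named gene (horizontal axis). Dlx6os1 and Dlx6as2 lie with Dlx6 near the bottom while Acn9 is at 0.00, and Nek6 is the 1 neighbour of Lhx2 that was called, at 2.86.

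Promoter sequence was looked at for the letters bound by the beta-catenin partners TCF and LEF and by homeodomain proteins. RefSeq promoters, 250 bases before to 50 after a start, were given for 5 of the 9 genes, with 2 starts for Lhx2, and Dlx3, Dlx4, Dlx5 and Dlx6 were without one. The letters CTTTGA, the core of a TCF and LEF site, were searched on both strands and were in 0 of these 6 promoters, against 16.0% of all 32851 promoters. The longer CTTTGAT, which contains the first motif, was in 0 of 6 and in 3.73% of all promoters. The homeodomain core TAATTA, whose reverse complement is itself, was in 1 of 6, that of Msx2, and in 5.29% of all promoters. The bases upstream of 1 start of Lhx2 are shown as the promoter of the gene that rose, with a GC content of 72.8% and no match to the motifs. The bases upstream of 1 start of Dlx6os1, which lies 3′ of Dlx6 in the gap between Dlx6 and Dlx5, are shown because they hold both motifs, in capitals. That start was picked for its matches from 4 promoters of noncoding genes at the Dlx loci. CTTTGA was in 2 of the 4 and TAATTA in 2, in each case those of Dlx6os1. The Dlx6os1 bases shown have a GC content of 33.2%.
Lhx2 (GRCm38.p6, chr2:38339031-38339280, plus strand): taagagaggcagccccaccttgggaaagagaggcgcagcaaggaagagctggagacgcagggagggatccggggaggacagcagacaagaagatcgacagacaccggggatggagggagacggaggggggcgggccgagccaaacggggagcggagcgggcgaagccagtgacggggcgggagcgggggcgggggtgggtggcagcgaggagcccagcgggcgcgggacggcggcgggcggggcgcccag
Dlx6os1 (GRCm38.p6, chr6:6869534-6869783, minus strand): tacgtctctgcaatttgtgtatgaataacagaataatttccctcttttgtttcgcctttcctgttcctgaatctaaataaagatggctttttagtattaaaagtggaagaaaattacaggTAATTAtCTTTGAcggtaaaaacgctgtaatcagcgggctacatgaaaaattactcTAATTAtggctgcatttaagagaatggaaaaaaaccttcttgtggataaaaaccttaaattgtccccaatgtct
In the Dlx6os1 sequence TAATTA starts at -130 and -74 and CTTTGA at -123, counted from the start of transcription. A match of letters is not a bound site, and its absence from these windows says nothing of the factors.

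Signals that act in appendages, with genes that respond to or inhibit them, were described by lists chosen with earlier results of these data known. Of all genes tested, 9.41% were called higher and 3.59% lower, which stands beside the counts of these and the later lists. BMP signals, which switch on Msx genes, held 15 genes, of which 4 were called higher and 1 lower, with a median log2 fold change of 0.08. The BMP ligand Bmp2 was at 329, 251 and 199 CPM in the SA tumors and 14.3, 18.1 and 16.4 CPM in the WT penises. Its log2 fold change was 3.99 ± 0.204 (adjusted p = 3.18e-06), and the ligands Bmp7 at 3.56 ± 0.168 and Bmp4 at 2.20 ± 0.144 rose too. The secreted BMP antagonist Grem1 rose with them, at 3.39 ± 0.156 (adjusted p = 2.24e-06). The receptor Bmpr1b fell from 6.65 to 13.3 CPM to 0.364 to 0.942 CPM, by 3.98 ± 0.413. The BMP target genes Id1 and Id2 were both lower, at -0.82 (adjusted p = 0.00295 and 0.00114), short of the fold threshold. In the same list Id3, at -0.56 (adjusted p = 0.0275), and Smad6, at -0.41 (adjusted p = 0.0459), did not pass the adjusted p-value. Smad7 went the other way, at 1.25 ± 0.101 (adjusted p = 2.55e-05), also short of the fold threshold. Higher ligand RNA thus stood beside lower Id1 and Id2, higher Smad7, and Msx1 and Msx2 levels of 0.674 and 1.16 times WT in mean CPM. Among the other appendage signals, a list of 20 genes of the Wnt, ectodysplasin, hedgehog, FGF and Sp groups with Trp63, 19 were tested. Of these, 13 were called higher and 1 lower, with a median log2 fold change of 3.87, against 0.03 over all genes tested. Shh, the hedgehog ligand, was at 116, 90.5 and 92.3 CPM in the SA tumors and 0.362, 0.300 and 0.319 CPM in the WT penises. It rose by a log2 fold change of 8.25 ± 0.192 (adjusted p = 6.09e-07), beside 8.88 ± 0.379 for the Wnt inhibitor Dkk4 and 8.17 ± 0.343 for the growth factor Fgf4. Fgf20 was at 27.5 to 47.8 CPM in the tumors and at most 0.136 CPM in the WT penises. The 1 gene called lower in that list, Fgf10, was not called without SA replicate 1. By contrast, the abundant epithelial factors Trp63 and Sp6 had log2 fold changes of -0.82 ± 0.123 (adjusted p = 0.000712) and 0.38 ± 0.111 (adjusted p = 0.0194).

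The relatives and partners of Lhx2 were also listed. Of 11 other LIM homeobox genes, 3 passed the filter on low counts, so Lhx1, Lhx3, Lhx4, Lhx5, Lhx8, Lhx9, Lmx1a and Lmx1b were too low to test. Lhx6 was called higher, at 9.77, 6.36 and 7.09 CPM in the SA tumors and 1.54, 0.935 and 2.10 CPM in the WT penises (log2 fold change 2.36 ± 0.323, adjusted p = 0.000429). The Islet genes went down, Isl2 by 2.51 ± 0.261 (adjusted p = 0.000117) and Isl1, known from the genital tubercle, by 1.79 ± 0.239 (adjusted p = 0.000499), which was short of the fold threshold. Without SA replicate 3, 2 of the 3 were called lower. Of 9 LIM cofactor and LIM-only genes, 8 were tested and Lmo1 alone was called, from 4.15 to 5.88 CPM in the WT penises to 30.0 to 48.3 CPM in the SA tumors (log2 fold change 2.83 ± 0.227, adjusted p = 2.44e-05). Without SA replicate 3, 1 of the 8 was called lower. Ldb1, the cofactor that Lhx2 binds, was at 184 to 234 CPM in the SA tumors and 198 to 207 CPM in the WT penises, with a log2 fold change of 0.04 ± 0.109 (adjusted p = 0.769). Ssbp3, which binds Ldb1, was lower by 1.04 ± 0.0901 on the log2 scale (adjusted p = 3.68e-05).

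Among 28 other homeobox genes of appendages, 25 were tested, of which 7 were called higher and 3 lower, with a median log2 fold change of 0.39. The Iroquois gene Irx4 was at 84.4, 81.6 and 28.2 CPM in the SA tumors and at most 0.467 CPM in the WT penises, a log2 fold change of 7.41 ± 0.604 (adjusted p = 9.43e-05). Irx1 at 4.83 ± 0.284 and Six4 at 4.14 ± 0.239 rose as well. Hopx, an atypical homeodomain protein of stratified epithelium, fell from 505 to 558 CPM to 73.8 to 91.8 CPM, by 2.66 ± 0.120 (adjusted p = 2.11e-06). The list thus had members in both directions, as the 9 genes did. Of 23 hair follicle and tooth regulators, all tested, 5 were called higher and 1 lower, with a median log2 fold change of -0.39. At the adjusted p-value alone, at any fold, 7 were higher and 12 lower, against 20.1% and 17.5% of all genes tested. The gene called lower, Hoxc13, went from 40.0 to 49.1 CPM in the WT penises to 3.28 to 3.86 CPM in the SA tumors (-3.63 ± 0.140, adjusted p = 1.62e-06). Sox2 went from 0.452 to 0.820 CPM in the WT penises to 53.6 to 110 CPM in the SA tumors (7.26 ± 0.395, adjusted p = 7.36e-06), and Runx2, the bone and tooth factor, rose by a log2 fold change of 4.77 ± 0.159 (adjusted p = 8.64e-07). Foxi3 was at 11.0 to 20.8 CPM in the tumors and at most 0.0456 CPM in the WT penises, and Pax9 was at 0.706 to 1.32 CPM against at most 0.0911 CPM. Klf4 and Cux1 were lower by 1.05 ± 0.201 and 0.62 ± 0.123 on the log2 scale. Of 15 genital tubercle genes, 4 were called higher, namely Shh, Bmp7, Pitx1 (3.17 ± 0.150) and Wnt5a (2.41 ± 0.171), and 2 lower, with a median log2 fold change of 0.06. That count of 2 was the least stable of these values. It was 0 without SA replicate 1, 4 without SA replicate 3 and 1 without SA replicate 2, WT replicate 2 or WT replicate 3.

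**Figure D5:**
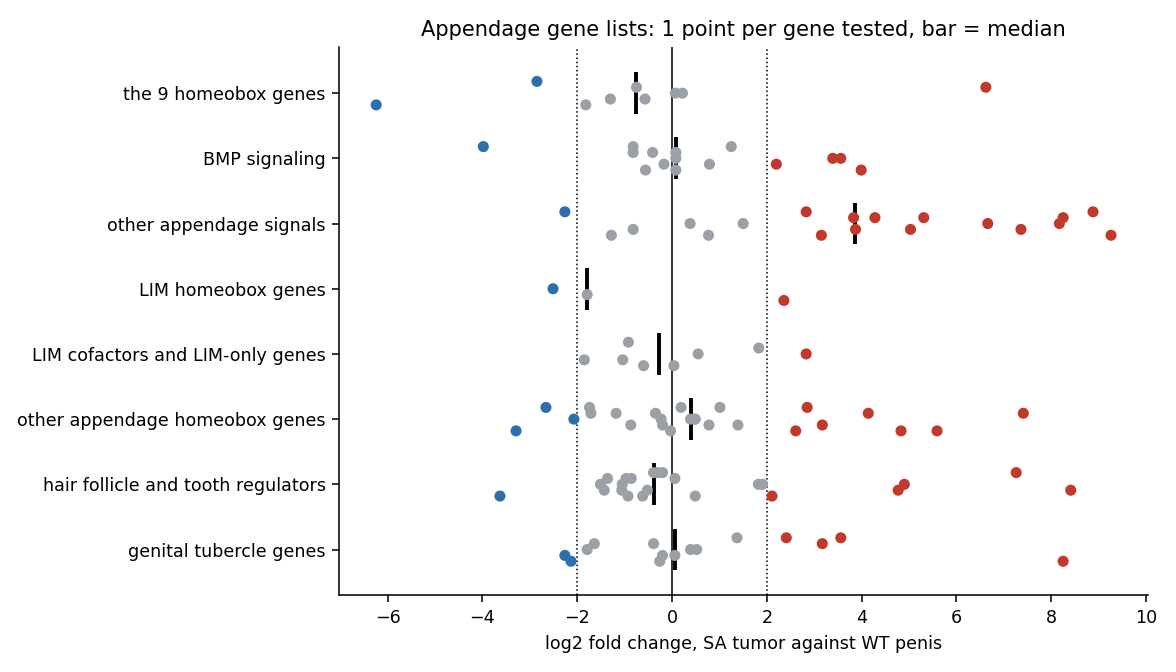
Log2 fold change, SA tumor over WT penis (horizontal axis), for every gene tested in the 9 homeobox genes and in 7 lists of appendage genes (rows), with red points called higher, blue points called lower, grey points not called, black bars the medians and dotted lines the fold threshold. The other appendage signals have a median of 3.87. The medians of the BMP, other appendage homeobox, hair follicle and genital tubercle lists lie between -0.39 and 0.39. That of the LIM homeobox list, with 3 genes tested, is -1.79.

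The makeup of the tissue pieces differed between the groups, and its part in the levels of the homeobox genes was not tested. Epithelial markers were abundant in every library, as the labels of penile epithelium imply, with summed levels of 14785 to 17104 CPM in the SA tumors and 30719 to 32958 CPM in the WT penises, and 1 of 9 was called in each direction. The WT penises also held smooth muscle RNA. All 6 smooth muscle markers were called lower, with sums of 35.6 to 124 CPM in the SA tumors and 1539 to 2056 CPM in the WT penises. Fibroblast markers summed to 1772, 4437 and 5560 CPM in the SA tumors and 6352 to 6640 CPM in the WT penises, with 0 of 9 called, and SA replicate 1 was lowest. Without that library Dlx5, Dlx6 and Lhx2 had log2 fold changes of -2.86, -6.19 and 6.62. That fit does not test tissue makeup, because smooth muscle and epithelial sums also differed between the groups in the libraries left. Of 11 bone and cartilage markers, 8 were tested and 5 were called higher, with sums of 98.8 to 108 CPM in the SA tumors and 10.7 to 19.3 CPM in the WT penises. Runx2, which the hair and tooth list also holds, made up 59.5 to 73.8 CPM of the tumor sums. Dlx5, which acts in bone cells, was lower in the same tumors, and a link to these markers was not tested. Of 7 Schwann cell and neuron markers, 3 were called higher and 3 lower. The glial gene Sox10 fell, with a log2 fold change of -4.53, and Gad1 and Gad2, the enzymes of GABA synthesis, rose by log2 fold changes of 6.48 and 7.90. In the forebrain Dlx genes are known to act upstream of Gad genes, and a link between them in these samples was not tested. Leukocyte markers summed to 697 to 1214 CPM in the SA tumors and 98.6 to 145 CPM in the WT penises. S100a8 alone was at 582 to 1034 CPM in the SA tumors, most of the sum there, and at 32.8 to 63.5 CPM in the WT penises. It was the 1 of 5 tested that was called higher. Endothelial markers (157 to 265 CPM against 292 to 340 CPM) had 0 of 6 called. The remaining sums were below 20 CPM in every library. Skeletal muscle had 1 of 4 tested called in each direction, at 6.65 to 9.07 CPM in the SA tumors and 10.9 to 15.9 CPM in the WT penises. Melanocyte markers were at 10.6 to 15.5 CPM and 10.8 to 12.9 CPM with 0 of 2 tested called and Tyr at 0 in every library. Prostate and urothelium markers were at 5.45 to 9.57 CPM and 1.40 to 2.14 CPM with 2 of 4 tested called higher and Pbsn, the gene whose promoter drives the Cre, at 0 in every library.

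The genes whose log2 CPM followed each homeobox gene most closely over the 6 samples are given as a description. The samples form 2 groups, so any gene with a steady difference between the groups correlates with any other, and 1863 genes had a Pearson r above 0.95 with Dlx6. Erlin1 was among the 3 closest to Dlx6 (r = 0.9996), and the 3 closest to Dlx5 were Slc15a1, Pkp1 and Ephx1 (0.9996, 0.9995 and 0.9995). Tecta, Adamts20 and Fam171a1 were closest to Lhx2 (0.9994, 0.9993 and 0.9989). Lpar5 and 1700021K19Rik were closest to Dlx1 (0.9995 and 0.9991), and Gpr146, Pde2a and Chad to Dlx2 (0.9993, 0.9981 and 0.9978). Nsun6, Arfip1 and Wdr20 were closest to Dlx4 (0.9980, 0.9980 and 0.9958), and Ajuba, Chmp5 and Ndufa4l2 to Msx1 (0.9987, 0.9958 and 0.9955). Dlx3 and Msx2, whose groups overlap, had few close companions, with 6 and 28 genes above 0.95. Their closest were Cdkal1, Kcmf1 and Dvl2 for Dlx3 (0.9734, 0.9667 and 0.9662) and Defb3, Ccna2 and Sirt5 for Msx2 (0.9918, 0.9805 and 0.9803).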

How the data were processed

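Stranded RNA-seq libraries of 3 SA tumors and 3 WT penises were used. TopHat alignments to mm10 were counted with HTSeq by the authors, who deposited raw counts for 33068 RefSeq transcript rows, without normalization. FPKM and TPM values deposited by the authors were not tested, and TPM served only to compare levels between genes. The strand setting of HTSeq is not given in the sources used here. The row with the highest mean count represented its symbol. The main test was that of edgeR 4.0.16 in R 4.3.3 (filterByExpr, TMM, robust quasi-likelihood F-test, no covariate, Benjamini-Hochberg over 16336 genes), at the study's thresholds. The SE was the log2 fold change divided by the square root of F. Scripts were tested on simulated data. The study's tool, DESeq2 1.42.0, and limma 3.58.1 (voom) were alternatives, with other scalings and filters, glmTreat, summed rows, a replicate block and each sample left out. The main fit at an adjusted p-value threshold of 0.05 was a further alternative. The study counts 3 biological samples per genotype, and p-values measure the spread between them. RefSeq (GRCm38.p6) gave positions for 23761 of 24063 symbols, homeoboxes came from GENCODE transcripts, and protein sequences were not used here. Genes were named by rule: the 9 genes, Smad4 and Apc, in each list up to 4 genes of largest change past both thresholds and 2 of highest level, the nearest or called neighbours, and the 3 most correlated genes. A few genes within this rule, and 1 sequence, are left out here. Names beyond the rule, such as Fgf10 and the marker genes named singly, were chosen after their values were seen. The 9 genes and the lists were chosen with earlier results of these data known.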

Additional observations from a re-analysis of the deposited data

How the results depend on the processing

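Over 16 alternatives, Lhx2 was called higher and Dlx5 and Dlx6 were called lower each time, with log2 fold changes of 6.08 to 7.95, -2.92 to -2.56 and -6.72 to -5.95. The main fit at a looser adjusted p-value threshold of 0.05 counts among these 16 and could only keep the calls. The number of the 9 genes past the adjusted p-value at any fold was 6, ranged from 4 to 6 when 1 sample was left out, and was 3 with glmTreat, which tests against the fold threshold itself. Over all genes glmTreat called 749 higher and 180 lower, against 1537 and 587. The log2 fold change of Dlx3 was -0.05 to 0.22 when 1 sample was left out, and its sign reversed without SA replicate 1 (adjusted p = 0.808). Scaling by library totals moved the median log2 fold change of all genes from 0.03 to 0.31 and called 1793 genes higher and 448 lower. Dlx2 was then at -1.01 (adjusted p = 0.0134) and Msx1 at -0.28 (adjusted p = 0.0666), neither past the threshold, while Dlx3 was at 0.35 (adjusted p = 0.0595) and Msx2 at 0.51 (adjusted p = 0.0230). Dlx4 passed the adjusted p-value with DESeq2 (0.00292) and limma-voom (0.00877). Of 224 recomputed list counts, 206 stayed within 1.5 times the main count and 18 did not. Samples of the same replicate number had residual correlations of -0.135, -0.105 and 0.0238, so the numbers were not treated as pairs. With the replicate number as a block, Lhx2, Dlx5 and Dlx6 kept their calls, Dlx2 (adjusted p = 0.0112) and Msx1 (0.0141) did not pass, and 1478 genes were called higher and 588 lower. The causes of these shifts were not tested. Depth limits Dlx6 in the SA tumors and Lhx2 in the WT penises, where few counts were left.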
